A study of Homo sapiens with 30 samples.

Results

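The genes described here belong to the unfolded protein response and to the protein folding machinery of the endoplasmic reticulum (ER), measured in human lymphoblastoid cells given 1 of 5 doses of caesium-137 radiation. They were taken from a list of 50 symbols, and a gene counted as a member where a probe set of the array, a set of short probes for 1 transcript, carried that symbol alone under its current or a former name. Of the 50 listed genes, 45 had such a probe set, 70 probe sets of the 22283 on the array. SESN2, SYVN1, DNAJB11, SEC61G and SEC11C had none. All 45 genes had a probe set bright enough to be tested, with 69 tested probe sets among the 13331 tested in all. The members were described in 3 branches, the ATF4 branch (19 listed, 18 tested), the XBP1/ATF6 branch (13 listed, 11 tested) and ER folding or translocation (18 listed, 16 tested).

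The cells were GM15036 and GM15510, a pair of established lines of B cells that grow in suspension, each of them 1 line. Each line was irradiated with caesium-137 at 1, 2.5, 5, 7.5 or 10 cGy, and each of the 10 groups had 3 arrays, 30 in all. Replicates are called a, b and c in GM15036, and 1, 2 and 3 in GM15510, with the label 2b for the second array at 5 cGy. Doses are in cGy in the labels, which are followed here, and the series' design text writes Gy after identical numbers. All groups were irradiated, so each dose was set against 1 cGy of the same line, and what all 5 doses share cannot be seen. No source used here states how long after irradiation RNA was taken. Whether the 3 arrays of 1 group stand for separate cultures is not stated, so each p-value measures the spread of these arrays alone, which may be technical. With 3 arrays a group, that number limits the precision.

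The unfolded protein response is the set of signals that cells start when unfolded protein gathers in the ER. The sensor ERN1 (IRE1) splices XBP1 messenger RNA into the form that codes for an active transcription factor, ATF6 is cut to release a transcription factor, and EIF2AK3 (PERK) phosphorylates the initiation factor eIF2, which favours translation of ATF4. XBP1 and ATF6 act on genes of chaperones and of ER-associated degradation, ATF4 acts on genes of amino acid supply and stress, and B cells use the same machinery when they make antibody. The arrays measured total messenger RNA of each gene, so neither the splicing of XBP1 nor the protein of ATF4 was measured.

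Sequence elements that these factors bind were looked for in the promoters of the members, and 4 promoters are shown because they carry such an element and belong to genes described below. RefSeq promoter windows of 300 bases (build GRCh38.p14) were at hand for 46 of the 50 listed genes, 62 windows, since some genes have several starts. Both strands were searched. The ER stress response element, CCAAT followed after 9 bases by CCACG, was found in 9 of the 62 windows (14.5%), in CALR, CANX, ERO1B, HSP90B1, HSPA5, PDIA6 and XBP1, and in 0.0769% of all 35097 windows of the same length. 3 of these 9 windows belong to CANX and overlap. The related element, ATTGG followed after 1 base by CCACG, lay in 3 windows (4.84%), those of HERPUD1, HYOU1 and SDF2L1, against 0.0541% of all. The core TGACGTGG lay in 1 window (1.61%), that of HYOU1, against 0.729% of all. For the composite element of C/EBP and ATF factors, TGATGCAAT lay in 0 member windows against 0.236% of all, and TGATGAAAC lay in 1 (1.61%), that of ASNS, against 0.225%. The looser form TGATGNAAN, which takes in the other 2 forms, lay in 6 windows (9.68%), in ASNS, ATF3, CEBPG, CHAC1, HERPUD1 and SLC3A2, against 3.61% of all. A match describes the letters only. The members were listed as genes of this response, so a higher share among them than among all windows is no test. The 200 bases before the start of 4 genes are given 5′ to 3′ on the strand of the gene, with the matches in capitals. They begin 66 bases before the start in HSPA5 (chr9:125241344-125241543, minus strand), 52 in XBP1 (chr22:28800570-28800769, minus), 117 and 177 in HERPUD1 (chr16:56931942-56932141, plus; the farther one is the composite element, reading the other strand) and 68 in ASNS (chr7:97872409-97872608, minus).
HSPA5: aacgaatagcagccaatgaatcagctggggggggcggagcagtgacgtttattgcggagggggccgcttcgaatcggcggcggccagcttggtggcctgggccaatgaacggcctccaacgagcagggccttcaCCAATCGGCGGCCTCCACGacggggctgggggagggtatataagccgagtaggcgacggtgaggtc
XBP1: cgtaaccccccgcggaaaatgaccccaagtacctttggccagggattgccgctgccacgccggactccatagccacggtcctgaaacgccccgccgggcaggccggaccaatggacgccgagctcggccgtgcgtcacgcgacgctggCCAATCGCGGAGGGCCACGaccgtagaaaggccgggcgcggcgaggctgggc
HERPUD1: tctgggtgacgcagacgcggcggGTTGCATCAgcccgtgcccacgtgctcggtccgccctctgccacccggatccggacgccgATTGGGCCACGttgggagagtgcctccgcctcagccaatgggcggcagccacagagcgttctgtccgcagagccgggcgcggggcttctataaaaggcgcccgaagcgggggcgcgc
ASNS: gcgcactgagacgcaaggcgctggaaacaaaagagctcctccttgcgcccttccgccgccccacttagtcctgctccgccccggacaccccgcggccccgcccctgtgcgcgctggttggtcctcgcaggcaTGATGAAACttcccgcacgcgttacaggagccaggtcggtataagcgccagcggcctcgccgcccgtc

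The arrays differed in brightness, from 14.1 to 112 as the trimmed mean of the deposited signal, and each array was scaled to a common trimmed mean before any comparison. Group means of brightness ran from 69.6 at 1 cGy down to 22.1 at 10 cGy in GM15036, and in GM15510 they were lowest at 2.5 cGy (18.7) and highest at 10 cGy (89.1), with 69.4 at the lowest dose and 39.0 (SD 26.6) at 5 cGy. Centring unscaled arrays on their medians instead moved the median change of all genes to -0.39 at 10 cGy in GM15036, and to -0.51 at 2.5 cGy and -0.30 at 5 cGy in GM15510, so changes at those doses are relative to the scaling. All 9 B cell markers with a probe set were above the filter on low signal, as were 7 of 7 plasma cell markers, 1 of 9 T and NK cell markers (CD3E), 1 of 7 monocyte markers (ITGAM), 1 of 4 erythroid markers (HBB) and 3 of 6 fibroblast markers (COL1A1, COL1A2 and THY1). Levels below are log2 of scaled signal plus 4, and changes are differences on that scale, which understates the change of dim genes. A change passed where limma's adjusted p (Benjamini-Hochberg, over all tested probe sets) was under 0.05. Members were brighter than most genes, with a median level of 7.59 against 5.47 over the 8103 genes tested, and 5.64, 8.0 and 9.62 in the ATF4, XBP1/ATF6 and ER folding branches. The log2 ratio of 3′ to 5′ signal of the ACTB control, a sign of RNA or labelling quality, differed by dose too. From the lowest to the highest dose its group means were 4.48, 5.51, 5.03, 5.40 and 5.20 in GM15036. In GM15510 they were 3.75, 4.29, 4.81 (SD 1.2), 3.78 and 5.16 (SD 0.096), and the 3 arrays of 5 cGy read 5.52, 5.48 and 3.43. The same ratio of GAPDH had group means between 2.47 and 2.84 in GM15036 and between 2.27 and 2.47 in GM15510. In both lines every higher dose is thus set against the group with the lowest ACTB ratio of that line. In GM15510 the 7.5 cGy group (3.78) lay close to it (3.75), and the 10 cGy group (5.16) lay farthest. The part of brightness was examined only as a covariate and without the 5 dimmest arrays, and that of the 3′ to 5′ ratio was not tested.

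Between doses, 24 of the 45 members, each read by its chosen probe set, differed in at least 1 line. In an F test for differences among the 5 dose groups of a line, 20 members (44.4%) passed in GM15036, where 16.3% of all genes tested passed, and 15 (33.3%) passed in GM15510, where 21.4% of all genes passed. In GM15036 these were 6 of 18 members of the ATF4 branch, 6 of 11 of the XBP1/ATF6 branch and 8 of 16 of ER folding or translocation. In GM15510 they were 4 of 18, 5 of 11 and 6 of 16. The 11 members that passed in both lines were ATF4, ASNS, SLC7A5, XBP1, HERPUD1, DNAJC3, MANF, HSPA5, PDIA3, MZB1 and EMC7. The shares of all genes that passed in at least 1 line or in both are not given here. The 24 and the 11 are thus not set against all genes. Against 1 cGy, the members that passed in GM15036 numbered 0 of 45 at 2.5 cGy (0.58% of all genes), 1 at 5 cGy (0.123%), 7 at 7.5 cGy (3.18%) and 9 at 10 cGy (11.7%). At 2.5 cGy in that line 12 members had an unadjusted p under 0.05 with limma, as had 9.82% of all genes. In GM15510 they numbered 4 at 2.5 cGy (9.18% of all genes), 2 at 5 cGy (3.92%), 6 at 7.5 cGy (1.79%) and 4 at 10 cGy (6.16%). The shares of members that passed at 7.5 cGy, 15.6% and 13.3%, lay above those of all genes, while those at 2.5, 5 and 10 cGy in GM15510 lay near them. Members are brighter than most genes, and the list was chosen with earlier results of these data known. Under a filter at the 60th percentile 5.78% and 3.3% of all genes passed at 7.5 cGy, with 9 and 7 members. The F tests then passed for 25.7% of all genes in GM15036 (22 members) and 32.7% in GM15510 (19 members). All 4 comparisons of a line use the same arrays at 1 cGy.

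**Figure D1:**
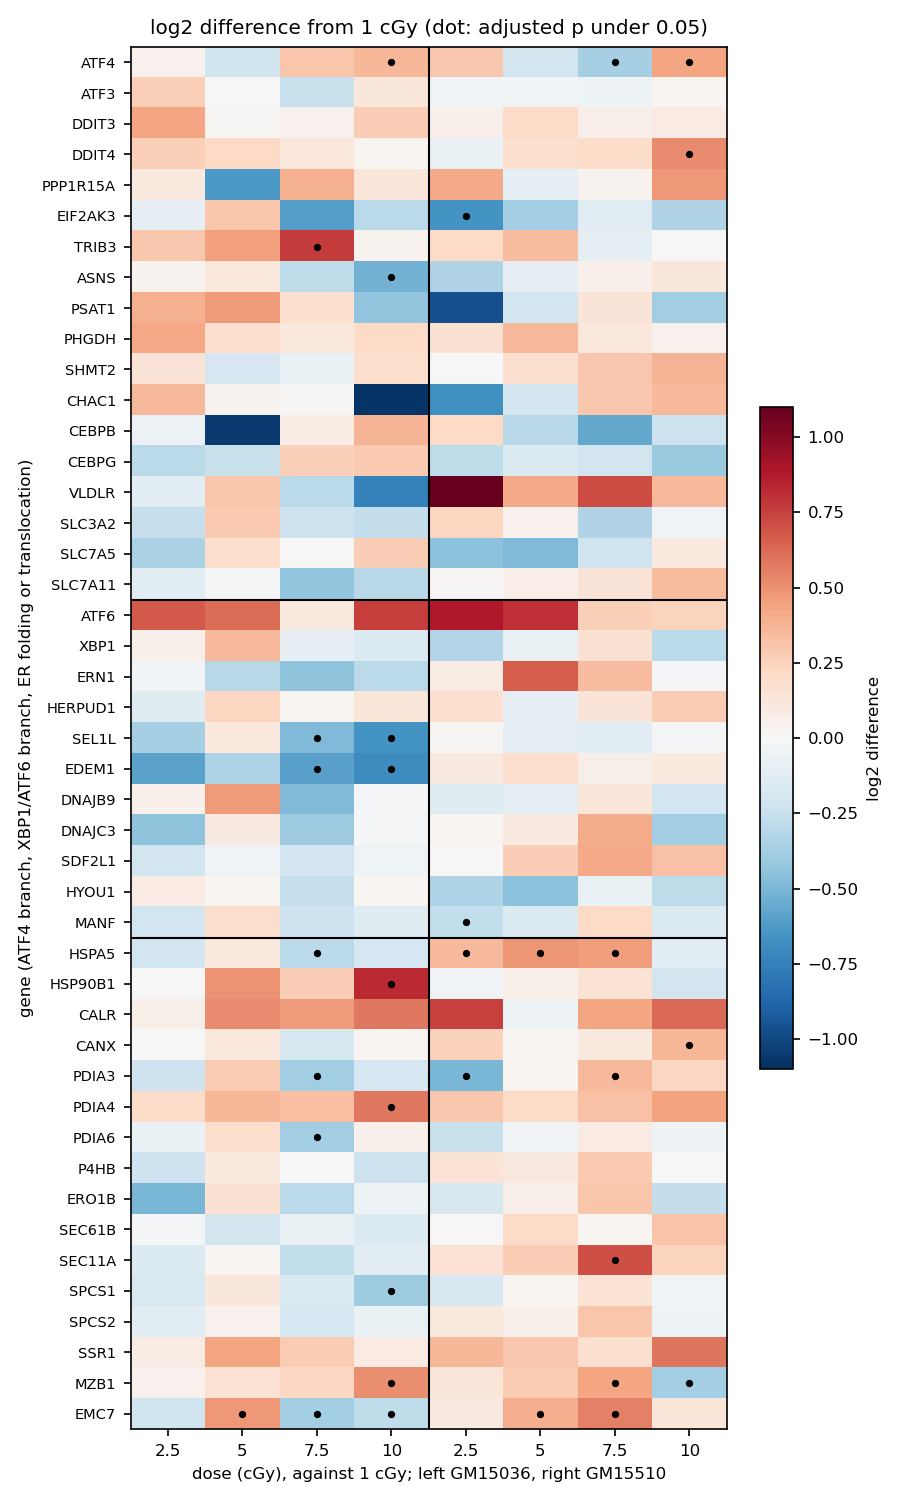
Change of each of the 45 members (rows, by branch) from 1 cGy at each higher dose (columns, cGy; GM15036 left, GM15510 right), as a log2 difference of group means of 3 arrays; dots mark an adjusted p under 0.05. The ER folding genes are mostly blue at 7.5 cGy in GM15036 and all red or pale red at 7.5 cGy in GM15510.

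HSPA5 (BiP, the main HSP70 chaperone of the ER and a holder of the stress sensors; probe set 211936_at) fell at 7.5 cGy in GM15036 and rose at 3 doses in GM15510. Its arrays a, b and c in GM15036 read 10.52, 10.50 and 10.43 at 1 cGy, 10.63, 10.54 and 10.62 at 5 cGy, and 10.29, 10.18 and 10.09 at 7.5 cGy. Each array at 7.5 cGy lay below each at 1 cGy, a difference of -0.30 ± 0.08 (SE; limma, adjusted p = 0.0357). In GM15510 its arrays 1, 2 and 3 read 10.28, 10.28 and 10.39 at 1 cGy, 10.73, 10.73 and 10.56 at 2.5 cGy, 10.91, 10.77 and 10.73 at 5 cGy, 10.91, 10.65 and 10.77 at 7.5 cGy, and 10.22, 10.21 and 10.15 at 10 cGy. The arrays of the 3 middle doses all lay above those at 1 cGy, and those at 10 cGy lay below them. The rises were 0.36 ± 0.08 at 2.5 cGy (limma, adjusted p = 0.00428), 0.48 ± 0.08 at 5 cGy (adjusted p = 2.96e-04) and 0.46 ± 0.08 at 7.5 cGy (adjusted p = 0.00191), and the change of -0.13 at 10 cGy did not pass. HSPA5 at 2.5 cGy in GM15510 turned to -0.42 under median centring of unscaled arrays and did not pass under quantile normalization, centring after scaling or brightness as a covariate. Under median centring of unscaled arrays the rise at 5 cGy was 0.065 (limma, adjusted p = 0.815) and that at 7.5 cGy 0.39 (0.426), and both calls were lost. The fall at 7.5 cGy in GM15036 did not pass when any array of 1 cGy, or array b or c of 7.5 cGy, was left out (adjusted p 0.0599 to 0.188), nor with no filter (0.0738).

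PDIA3 (ERp57, the disulfide isomerase that works with calnexin and calreticulin; 208612_at) followed another order of doses in each line. In GM15036 its arrays read 9.69, 9.73 and 9.77 at 1 cGy, 9.53, 9.56 and 9.42 at 2.5 cGy, 10.04, 10.01 and 9.97 at 5 cGy, 9.39, 9.26 and 9.38 at 7.5 cGy, and 9.56, 9.48 and 9.58 at 10 cGy. The 5 cGy arrays were the highest and the 7.5 cGy arrays the lowest, with no overlap between them and 1 cGy. The change from 1 cGy was -0.39 ± 0.08 at 7.5 cGy (limma, adjusted p = 0.00343), and the F test over doses had an adjusted p of 1.81e-06. In GM15510 its arrays read 9.38, 9.48 and 9.32 at 1 cGy, 8.94, 8.88 and 8.87 at 2.5 cGy, 9.40, 9.56 and 9.33 at 5 cGy, 9.72, 9.79 and 9.75 at 7.5 cGy, and 9.50, 9.71 and 9.66 at 10 cGy. Here the 2.5 cGy arrays were the lowest and the 7.5 cGy arrays the highest. PDIA3 fell by 0.50 ± 0.08 at 2.5 cGy (limma, adjusted p = 5.5e-05) and rose by 0.35 ± 0.08 at 7.5 cGy (adjusted p = 0.0122), and its F test had an adjusted p of 1.75e-08. Both falls passed in all 13 alternative settings and with each of the 30 arrays left out. The rise did not pass without array 1 or 3 of 1 cGy (adjusted p 0.0699 and 0.0843), under either median centring, or with the line fitted alone.

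EMC7 (part of the EMC, an ER complex that inserts membrane proteins; 217898_at) moved with dose in both lines and was highest at different doses. In GM15036 its arrays read 9.31, 9.20 and 9.12 at 1 cGy, 8.97, 9.0 and 9.01 at 2.5 cGy, 9.79, 9.65 and 9.63 at 5 cGy, 8.84, 8.86 and 8.81 at 7.5 cGy, and 8.92, 8.90 and 8.97 at 10 cGy. The arrays at 5 cGy all lay above those at 1 cGy, and those at 2.5, 7.5 and 10 cGy all lay below. EMC7 rose by 0.48 ± 0.08 at 5 cGy (limma, adjusted p = 0.0032), and was the single member to pass there. It fell by 0.37 ± 0.08 at 7.5 cGy (adjusted p = 0.0059) and by 0.28 ± 0.08 at 10 cGy (adjusted p = 0.0198). In GM15510 its arrays read 9.09, 9.16 and 9.12 at 1 cGy, 9.67, 9.41 and 9.50 at 5 cGy, and 9.66, 9.66 and 9.71 at 7.5 cGy. All arrays at 5 and 7.5 cGy lay above those at 1 cGy, with rises of 0.40 ± 0.08 (limma, adjusted p = 0.00225) and 0.55 ± 0.08 (adjusted p = 2.11e-04). The fall at 7.5 cGy in GM15036 passed in all 13 alternative settings and with each array left out. The rise at 5 cGy in GM15036 did not pass without array b of 1 cGy or a of 5 cGy (adjusted p 0.0602 and 0.0767), the fall at 10 cGy without array a or b of 1 cGy or of 10 cGy (0.0524 to 0.109), and median centring of unscaled arrays turned the change at 5 cGy in GM15510 to -0.01. That centring also ended the calls at 5 cGy in GM15036 (0.40, adjusted p = 0.774 in limma) and at 7.5 cGy in GM15510 (0.48, 0.324). Centring after scaling ended the calls at 5 cGy in GM15036 (0.47, adjusted p = 0.148 in limma) and in GM15510 (0.25, 0.188). The fall at 10 cGy was lost with brightness as a covariate (-0.29) and without the 5 dimmest arrays (-0.24).

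MZB1 (a chaperone of B cells and plasma cells that helps to assemble antibody; 221286_s_at) rose at 10 cGy in GM15036 and fell at 10 cGy in GM15510. In GM15036 its arrays read 8.83, 8.58 and 8.44 at 1 cGy and 9.01, 9.13 and 9.24 at 10 cGy, with no overlap. This was a rise of 0.51 ± 0.10 (limma, adjusted p = 7.75e-04). In GM15510 its arrays read 8.24, 8.33 and 8.34 at 1 cGy, 8.96, 8.64 and 8.62 at 7.5 cGy, and 7.86, 7.95 and 7.98 at 10 cGy. The 7.5 cGy arrays lay above and the 10 cGy arrays below all those at 1 cGy, a rise of 0.44 ± 0.10 (limma, adjusted p = 0.0182) and a fall of 0.37 ± 0.10 (adjusted p = 0.0208). Of the 7 plasma cell markers, which do not include MZB1, 0 passed in GM15036 at 10 cGy and 0 in GM15510 at 7.5 cGy, and TNFRSF17 alone rose at 10 cGy in GM15510. Their summed scaled signal was 1324 at 1 cGy and 1598 at 10 cGy in GM15036, and 942 at 1 cGy, 1023 at 7.5 cGy and 1125 at 10 cGy in GM15510, and their part in the result was not tested. The rise in GM15036 turned to -0.14 under median centring of unscaled arrays and did not pass with centring after scaling or brightness as a covariate. In GM15510 neither change passed under either median centring, and the rise did not pass without array 1 of 1 cGy or of 7.5 cGy (adjusted p 0.113 and 0.18), and the fall without array 2 or 3 of 1 cGy or 1 or 2 of 10 cGy (0.0502 to 0.0963).

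**Figure D2:**
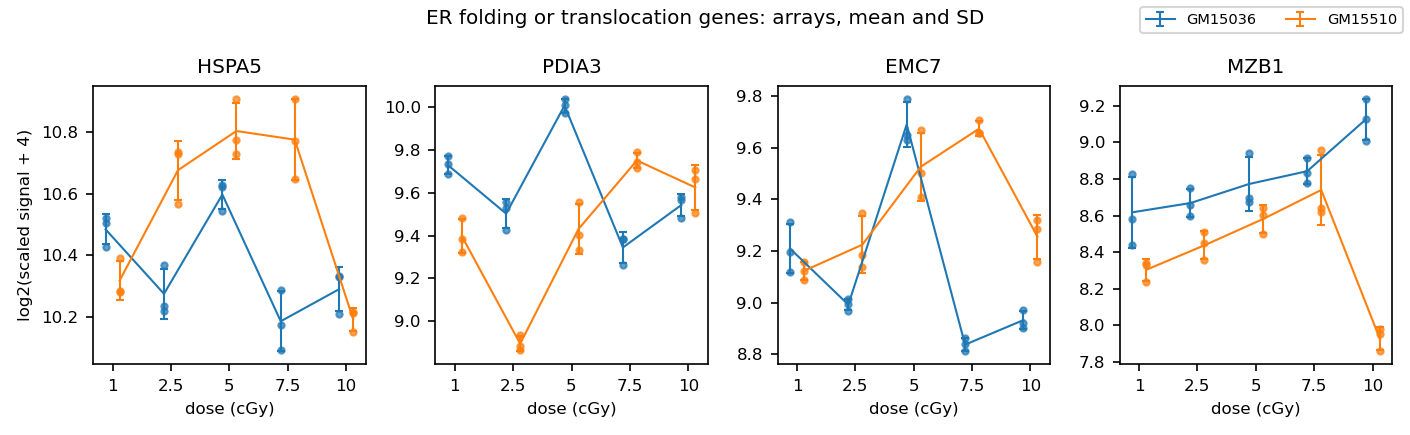
Levels of HSPA5, PDIA3, EMC7 and MZB1 (log2 of scaled signal plus 4) by dose in cGy; points are arrays, lines join group means, and bars are SD (n = 3 arrays), with the lines set slightly apart sideways. The highest mean of EMC7 is 9.69 in GM15036, at 5 cGy, and 9.67 in GM15510, at 7.5 cGy.

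The other chaperones and oxidoreductases moved in fewer comparisons. HSP90B1 (GRP94, the HSP90 of the ER; 216449_x_at) read 8.12, 7.93 and 8.25 at 1 cGy and 8.82, 9.12 and 8.82 at 10 cGy in GM15036. The groups did not overlap and it rose by 0.82 ± 0.16 (limma, adjusted p = 4.64e-04), the highest rise among members past the threshold in that comparison. Under median centring of unscaled arrays the rise was 0.18 (limma, adjusted p = 0.543), and without the 5 dimmest arrays 0.72 (0.0526), and both ended the call. Its other probe set gave 0.22 and did not pass, and both are of the kind (_x_at) that can bind other transcripts. PDIA4, a disulfide isomerase, read 9.07, 8.82 and 8.31 at 1 cGy and 9.33, 9.20 and 9.41 at 10 cGy in GM15036. Its groups did not overlap, but array c of 1 cGy stood below the others. The rise of 0.58 ± 0.14 (limma, adjusted p = 0.00533) became 0.36 (adjusted p = 0.0951) without that array, did not pass under centring after scaling (0.34) or with brightness as a covariate (0.30), and turned to -0.070 under median centring of unscaled arrays. Its other probe set gave 0.19 and did not pass. PDIA6, also a disulfide isomerase, read 10.14, 10.07 and 9.85 at 1 cGy and 9.66, 9.64 and 9.62 at 7.5 cGy in GM15036, with no overlap. The F test of PDIA6 over doses in GM15036 passed (limma, adjusted p = 0.00194), also with each of the 30 arrays left out. PDIA6 fell by 0.38 ± 0.11 at 7.5 cGy (limma, adjusted p = 0.0385). The fall did not pass without array a or b of 1 cGy or any array of 7.5 cGy (adjusted p 0.0607 to 0.15), with no filter, or with the brightest probe set whatever its suffix (-0.26, adjusted p = 0.166). Calnexin (CANX, a membrane-bound lectin chaperone; 200068_s_at) read 10.27, 10.28 and 10.11 at 1 cGy and 10.51, 10.50 and 10.75 at 10 cGy in GM15510. It rose by 0.37 ± 0.10 (limma, adjusted p = 0.0286), but not past the threshold without any 1 array of 1 cGy or array 3 of 10 cGy (adjusted p 0.0511 to 0.206), under median centring of unscaled arrays, with no filter or with the line fitted alone. Its probe sets were opposed at 10 cGy in GM15036, where 208852_s_at fell by 0.66, 208853_s_at rose by 0.57 and the chosen set gave 0.03.

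Among genes of signal peptide removal, SEC11A (a catalytic subunit of signal peptidase; 201290_at) read 9.79, 9.87 and 9.88 at 1 cGy and 10.84, 10.39 and 10.43 at 7.5 cGy in GM15510. The 7.5 cGy arrays stood clear of those at 1 cGy, and SEC11A rose by 0.71 ± 0.10 (limma, adjusted p = 1.95e-04), with each of the 30 arrays left out in turn as well. Median centring of unscaled arrays gave 0.64 and ended the call (limma, adjusted p = 0.161). Its other probe set gave 0.07 at that dose and passed with rises of 0.56 at 2.5 cGy, 0.47 at 5 cGy and 0.47 at 10 cGy. SPCS1, a smaller subunit of the same enzyme, read 9.94, 9.98 and 9.94 at 1 cGy and 9.65, 9.29 and 9.74 at 10 cGy in GM15036. It fell by 0.39 ± 0.09 (limma, adjusted p = 0.00337), and without array b of 10 cGy, the dimmest array of all, by 0.25 (adjusted p = 0.0614). Brightness as a covariate gave -0.33 (limma, adjusted p = 0.197) and leaving out the 5 dimmest arrays -0.21 (0.303), and both ended the call. SSR1, a subunit of the translocon-associated complex, did not pass with its chosen probe set, while 3 other probe sets fell at 7.5 cGy in GM15036 by 0.41 to 0.85. Counted over all 69 tested member probe sets, 14 passed at 7.5 cGy in GM15036, 1 higher and 13 lower, where 3.22% of all probe sets passed.

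The dose at which the 16 ER folding or translocation genes of the list had their highest mean level was described without a test. In GM15036, 11 of the 16 ER folding or translocation genes (68.8%) had it at 5 cGy, where 17.1% of all genes had theirs. In GM15510, 10 of 16 (62.5%) had it at 7.5 cGy, against 17.7% of all genes. The same doses led in the XBP1/ATF6 branch, with 6 of 11 genes in GM15036 at 5 cGy and 5 of 11 in GM15510 at 7.5 cGy. In the ATF4 branch no dose led in GM15036, where 5 of 18 genes (27.8%) were highest at each of 2.5, 5 and 10 cGy, against 21.5%, 17.1% and 27.7% of all genes. In GM15510 9 of 18 (50%) were highest at 10 cGy in GM15510, against 22.8% of all genes. Against 1 cGy, the median change of the 16 ER folding genes at 5 cGy in GM15036 was 0.16, with 15 of 16 above 0, and at 7.5 cGy it was -0.18, with 11 of 16 below 0. At 7.5 cGy in GM15510 it was 0.31, with 16 of 16 above 0. The medians of all genes in these comparisons were -0.01, -0.01 and -0.01. Across the settings the number of these 16 genes above 0 ran from 13 to 15, from 2 to 6 and from 14 to 16. A further list of 39 genes of ER folding and translocation, outside the members, had medians of 0.005, -0.13 and 0.07 in these comparisons. Of those 39, the numbers above 0 were 20, 10 and 28. The pattern at 5 cGy in GM15036 is thus described for the 16 listed genes alone. Genes of a group share the arrays, so these counts are not independent of each other.

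**Figure D3:**
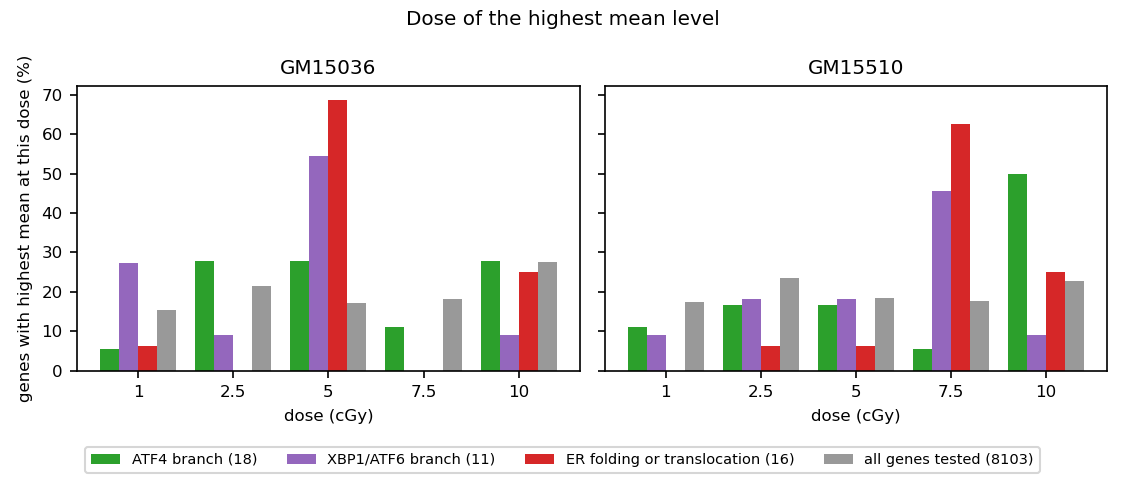
Share of genes (%) whose highest group mean lies at each dose (cGy), for the 3 branches and for all genes tested, in GM15036 (left) and GM15510 (right). The bars of ER folding genes reach 68.8% in GM15036, at 5 cGy, and 62.5% in GM15510, at 7.5 cGy.

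Of the sensors and factors of the XBP1/ATF6 branch, XBP1 differed among doses in both lines. XBP1 (200670_at) read 8.61, 8.11 and 8.69 at 1 cGy, 8.98, 8.94 and 8.55 at 5 cGy, and 8.30, 8.40 and 8.26 at 10 cGy in GM15036. In GM15510 it read 9.14, 9.08 and 9.14 at 1 cGy, 8.81, 8.78 and 8.80 at 2.5 cGy, 9.28, 9.23 and 9.35 at 7.5 cGy, and 8.88, 8.82 and 8.77 at 10 cGy. The groups overlapped in GM15036, while in GM15510 the arrays at 2.5 and 10 cGy lay below and those at 7.5 cGy above all arrays at 1 cGy. The F tests of XBP1 passed (limma, adjusted p = 0.00934 in GM15036 and 0.00443 in GM15510), and no single dose did against 1 cGy. The F test in GM15036 did not pass without array a or b of 5 cGy (adjusted p up to 0.101), with the line fitted alone or with brightness as a covariate. ATF6 (203952_at) and ERN1 (207061_at) were dim, with medians of 4.88 and 4.12 over the 15 arrays of GM15036 and 5.01 and 4.41 over those of GM15510. Arrays of 1 group spread widely, ATF6 from 3.41 to 4.91 at 1 cGy in GM15036, and neither of these probe sets passed any test over doses.

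SEL1L and EDEM1 belong to ER-associated degradation, which moves misfolded protein back to the cytosol, and both fell at 7.5 and 10 cGy in GM15036. SEL1L (the adaptor of the HRD1 ubiquitin ligase; 202061_s_at) read 8.50, 8.53 and 8.43 at 1 cGy, 8.05, 8.12 and 8.19 at 2.5 cGy, 8.53, 8.54 and 8.73 at 5 cGy, 7.87, 8.06 and 8.07 at 7.5 cGy, and 7.88, 7.91 and 7.70 at 10 cGy in GM15036. The arrays at 2.5, 7.5 and 10 cGy all lay below those at 1 cGy, and those at 5 cGy did not. SEL1L fell by 0.49 ± 0.10 at 7.5 cGy (limma, adjusted p = 0.0027) and by 0.66 ± 0.10 at 10 cGy (adjusted p = 1.8e-05), in all 13 alternative settings and with each array left out. In GM15510 its group means stayed between 8.35 and 8.48. At 10 cGy in GM15036 its other 3 probe sets gave 0.61, 0.05 and 0.22, and none of these passed. EDEM1 (a lectin-like protein that selects misfolded glycoproteins; 203279_at) read 8.33, 8.51 and 9.46 at 1 cGy, 8.15, 8.16 and 8.20 at 7.5 cGy, and 8.03, 8.17 and 8.03 at 10 cGy in GM15036. Array c of 1 cGy stood far above the other 2. EDEM1 fell by 0.60 ± 0.16 at 7.5 cGy (limma, adjusted p = 0.026) and by 0.69 ± 0.16 at 10 cGy (adjusted p = 0.0026). Without array c of 1 cGy the changes were -0.25 (adjusted p = 0.324) and -0.35 (adjusted p = 0.0472). The fall at 7.5 cGy also did not pass without any 1 array of 7.5 cGy (adjusted p 0.0573 to 0.0857), with array weights or with the line fitted alone. Neither fall passed with brightness as a covariate (adjusted p 0.102 and 0.0705), and the fall at 10 cGy was also lost without the 5 dimmest arrays (0.0557).

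HERPUD1 (a membrane protein of the same degradation complex; 217168_s_at) read 8.46, 8.23 and 8.44 at 1 cGy and 8.58, 8.54 and 8.71 at 5 cGy in GM15036. It differed among doses in both lines (limma, adjusted p = 0.0389 in GM15036 and 0.0192 in GM15510), but passed at no single dose. DNAJC3 (P58IPK, a co-chaperone of HSPA5) had its highest mean in GM15036 at 5 cGy, 6.49, and in GM15510 at 7.5 cGy, 7.24, with F tests at adjusted p of 0.0371 and 0.0136 in limma. With 1 array left out, the F tests of HERPUD1 and DNAJC3 passed for 21 and 23 of the 30 arrays in GM15036, and in GM15510 for all but array 3 of 10 cGy and, in turn, array 1 of 5 cGy (HERPUD1) or of 7.5 cGy (DNAJC3), with adjusted p up to 0.0644 and 0.0846. In GM15036 both were also lost with no filter and with brightness as a covariate. MANF (a small protein kept in the ER that is also secreted; 202655_at) read 9.08, 9.22 and 9.09 at 1 cGy, 8.80, 8.70 and 9.08 at 2.5 cGy and 9.35, 9.36 and 9.34 at 7.5 cGy in GM15510. The arrays at 2.5 cGy touched those at 1 cGy, and those at 7.5 cGy lay above them. In GM15036 the group means of MANF ran from 8.60 to 9.03. The F tests of MANF passed in GM15036 (limma, adjusted p = 0.00197) and GM15510 (7.16e-04), also with each of the 30 arrays left out. MANF fell by 0.27 ± 0.09 at 2.5 cGy (limma, adjusted p = 0.0462), which did not pass with 14 of the 30 arrays left out (adjusted p 0.0502 to 0.23) or in 5 of 13 alternative settings. SDF2L1 (an ER protein found with HSPA5 in chaperone complexes) differed among doses in GM15510 (limma, adjusted p = 0.0191), with its lowest means at 1 and 2.5 cGy, both 7.53, and its highest at 7.5 cGy, 7.94, and did not pass without array 1 of 1 cGy (adjusted p = 0.0564). DNAJB9 (ERdj4, another HSPA5 co-chaperone) did not pass with its chosen probe set, whereas 202842_s_at fell by 0.47 at 7.5 cGy and by 0.82 at 10 cGy in GM15036 and rose by 0.46 at 10 cGy in GM15510.

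**Figure D4:**
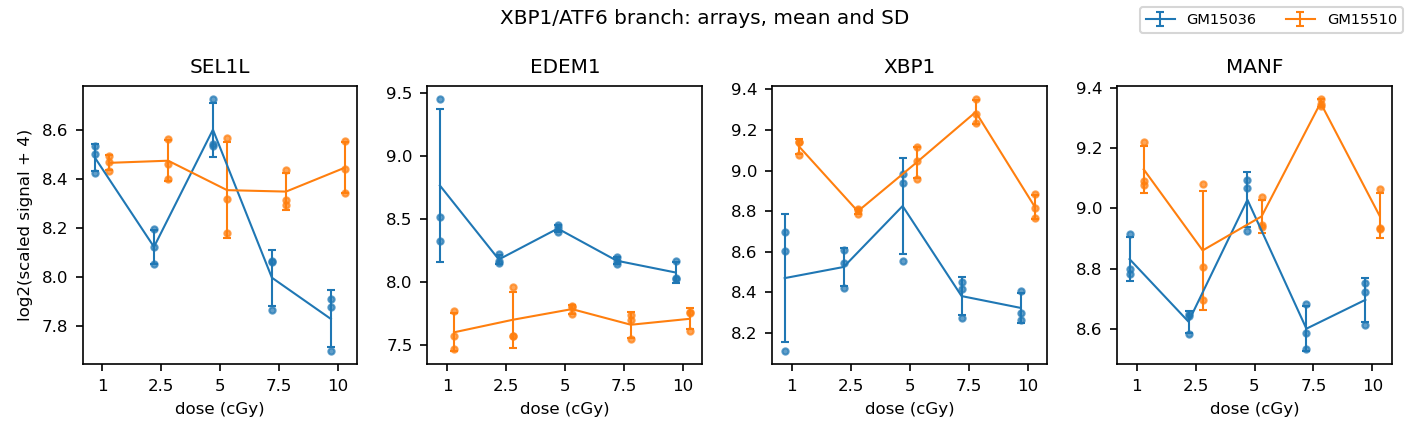
Levels of SEL1L, EDEM1, XBP1 and MANF (log2 of scaled signal plus 4) by dose in cGy; points are arrays, lines join group means, and bars are SD (n = 3 arrays). SEL1L has a mean of 7.83 at 10 cGy in GM15036 against 8.49 at 1 cGy, and 1 array of EDEM1 at 1 cGy in GM15036 lies at 9.46.

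In the ATF4 branch, ATF4 itself (200779_at) was highest at 10 cGy in both lines and lowest at the doses where most ER folding genes of the list were highest. In GM15036 its arrays read 8.07, 8.21 and 8.15 at 1 cGy, 8.01, 7.91 and 7.86 at 5 cGy, 8.37, 8.50 and 8.48 at 7.5 cGy, and 8.41, 8.54 and 8.57 at 10 cGy. Arrays at 7.5 and 10 cGy lay above and those at 5 cGy below all arrays at 1 cGy. ATF4 rose by 0.36 ± 0.10 at 10 cGy (limma, adjusted p = 0.0136). In GM15510 its arrays read 7.78, 7.64 and 7.82 at 1 cGy, 8.10, 8.13 and 7.90 at 2.5 cGy, 7.34, 7.32 and 7.48 at 7.5 cGy, and 8.05, 8.34 and 8.16 at 10 cGy. Arrays at 2.5 and 10 cGy lay above and those at 7.5 cGy below all arrays at 1 cGy. ATF4 fell by 0.37 ± 0.10 at 7.5 cGy (limma, adjusted p = 0.0491) and rose by 0.44 ± 0.10 at 10 cGy (adjusted p = 0.0051). The fall did not pass with 22 of the 30 arrays left out (adjusted p 0.0501 to 0.199) or in 7 of 13 alternative settings. The rise in GM15036 turned to -0.27 under median centring of unscaled arrays and did not pass without array a of 1 cGy or c of 10 cGy (adjusted p 0.0608 and 0.0527), with centring after scaling, with brightness as a covariate or without the 5 dimmest arrays. The rise in GM15510 did not pass without array 2 of 10 cGy (adjusted p = 0.0566 in limma) or under median centring of unscaled arrays (0.48, 0.167).

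Genes known as targets of ATF4 moved in both directions. ASNS (asparagine synthetase; 205047_s_at) read 7.89, 7.84 and 7.75 at 1 cGy and 7.27, 7.34 and 7.32 at 10 cGy in GM15036, with no overlap. It fell by 0.52 ± 0.12 (limma, adjusted p = 0.003), and this held with each array left out, while brightness as a covariate gave -0.32 and ended the call. In GM15510 ASNS read 7.46, 7.57 and 7.57 at 1 cGy and 7.74, 7.71 and 7.53 at 10 cGy, which overlapped. Its F test in GM15510 (limma, adjusted p = 0.03) did not pass without array 3 of 2.5 cGy or array 1 or 2 of 10 cGy (adjusted p up to 0.217), nor in 5 alternative settings, brightness as a covariate among them (0.898). DDIT4 (REDD1, an inhibitor of the growth kinase complex mTORC1; 202887_s_at) read 8.10, 8.19 and 8.14 at 1 cGy and 8.71, 8.68 and 8.60 at 10 cGy in GM15510. It rose by 0.52 ± 0.09 (limma, adjusted p = 4.78e-04), also with each array left out, and its change at that dose in GM15036 was 0.02. Median centring of unscaled arrays gave 0.56 and ended the call (limma, adjusted p = 0.156). TRIB3 (a pseudokinase that feeds back on ATF4; 218145_at) read 6.28, 6.03 and 5.56 at 1 cGy and 6.95, 6.50 and 6.71 at 7.5 cGy in GM15036. It rose by 0.77 ± 0.21 (limma, adjusted p = 0.0393), but not past the threshold without array b or c of 1 cGy or any 1 array of 7.5 cGy (adjusted p 0.0545 to 0.255), or in 5 of 13 alternative settings (0.0524 to 0.249). EIF2AK3, the kinase PERK (218696_at), read 7.96, 7.83 and 7.88 at 1 cGy and 7.22, 7.24 and 7.24 at 2.5 cGy in GM15510. These arrays were far apart and EIF2AK3 fell by 0.66 ± 0.18 (limma, adjusted p = 0.018), which did not pass without array 1 or 3 of 1 cGy (adjusted p 0.0724 and 0.0503). Brightness as a covariate reduced the change to -0.23 (limma, adjusted p = 0.789), and without the 5 dimmest arrays, 2 of which belong to that dose, it was -0.67 and did not pass (0.164). In GM15036 1 array of EIF2AK3 at 7.5 cGy read 6.26 beside 7.59 and 7.28, and its change there did not pass. The F test of EIF2AK3 in GM15036 did pass (limma, adjusted p = 0.00485), also with each of the 30 arrays left out (adjusted p up to 0.0222). CEBPG, a C/EBP factor that pairs with ATF4, differed among doses in GM15036 (limma, adjusted p = 0.00513), with means of 5.86 at 2.5 cGy and 6.45 at 10 cGy, but not under either median centring (adjusted p up to 0.238). SLC7A5, the LAT1 amino acid transporter, differed in both lines (limma, adjusted p = 0.047 and 0.0194), and passed with 12 of the 30 arrays left out in GM15036, and in GM15510 with all but array 3 of 10 cGy (adjusted p = 0.0724). Brightness as a covariate ended its call in both lines.

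**Figure D5:**
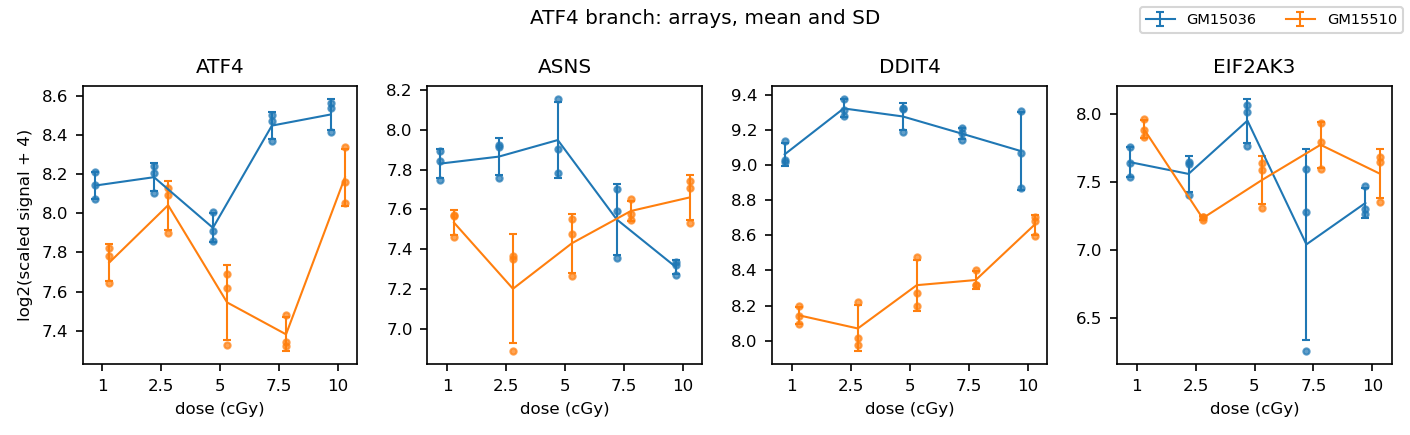
Levels of ATF4, ASNS, DDIT4 and EIF2AK3 (log2 of scaled signal plus 4) by dose in cGy; points are arrays, lines join group means, and bars are SD (n = 3 arrays). The lowest mean of ATF4 is 7.93 in GM15036, at 5 cGy, and 7.38 in GM15510, at 7.5 cGy, and DDIT4 is higher in GM15036 at every dose.

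With their chosen probe sets, the other 21 members did not pass an F test over doses in either line. Counted by any tested probe set, 25 members passed it in GM15036 and 22 in GM15510, where the chosen sets gave 20 and 15. A gene named below may thus have passed with another set. Genes with several tested sets, 14 of the members, have more occasions to pass, and the share of all genes by that count is not given here. Counted by probe set, 33 of 69 (47.8%) passed in GM15036, against 16.2% of all probe sets. In GM15510 29 (42%) passed, against 21%. The chosen set was dimmer than another one in CALR (4.97 beside 8.93 and 8.51), DNAJB9 (4.31 beside 7.70) and SHMT2 (5.67 beside 8.82 and 6.14). The 21 include the stress factors ATF3 and DDIT3 (CHOP, which promotes cell death under lasting stress), the eIF2 phosphatase subunit PPP1R15A, the serine pathway enzymes PSAT1, PHGDH and SHMT2, the glutathione-cleaving enzyme CHAC1, CEBPB, the lipoprotein receptor VLDLR, and the transporters SLC3A2 and SLC7A11. ATF3 read between 5.00 and 5.93 over the 15 arrays of GM15036 and between 4.80 and 5.99 in GM15510. DDIT3 read between 5.10 and 6.23 and between 5.39 and 5.85, and its 5 group means in GM15510 lay within 0.21 of each other. In ATF3 the group means of GM15510 lay within 0.07 of each other, less than the SD of 0.41 within a dose. Of the ER genes, ATF6, ERN1, DNAJB9, HYOU1 (the nucleotide exchange factor of HSPA5), CALR, P4HB (the founding disulfide isomerase), the oxidase ERO1B, the SEC61 channel subunit SEC61B, SPCS2 and SSR1 did not pass with their chosen sets. P4HB read between 8.56 and 9.26 in GM15036 and between 8.55 and 8.98 in GM15510. CHAC1, VLDLR, PSAT1 and CEBPB had SDs within a dose of 0.44 to 0.80, so a change below that size would be hard to see at 3 arrays a group.

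The change with dose differed between the lines for 20 of the 45 members (44.4%) in an F test of the line by dose interaction, where 20.1% of all genes passed. These were 5 of 18 members of the ATF4 branch, 6 of 11 of the XBP1/ATF6 branch and 9 of 16 of ER folding or translocation. Under a filter at the 60th percentile 22 members and 31.6% of all genes passed. At 7.5 cGy the change in GM15510 minus that in GM15036 was 0.98 ± 0.14 (SE) for SEC11A, 0.92 ± 0.11 for EMC7, 0.81 ± 0.24 for DNAJC3, 0.76 ± 0.12 for HSPA5, 0.74 ± 0.11 for PDIA3, 0.45 ± 0.12 for MANF and -0.67 ± 0.14 for ATF4. At 10 cGy it was -1.02 ± 0.22 for HSP90B1, -0.88 ± 0.14 for MZB1, 0.80 ± 0.22 for EDEM1, 0.65 ± 0.17 for ASNS, 0.64 ± 0.14 for SEL1L and 0.50 ± 0.13 for DDIT4. Brightness fell from 1 to 10 cGy in GM15036 and was highest at 10 cGy in GM15510. With it as a covariate, the interaction did not pass for ASNS (limma, adjusted p = 0.517), DDIT4 (0.545), CEBPG (0.714), SPCS1 (0.361), EIF2AK3 (0.0794) or EDEM1. PDIA3 had the smallest adjusted p of the interaction among members (limma, 1.11e-07), followed by EMC7 (6.27e-07), MZB1 (3.92e-06) and HSPA5 (2.17e-05).

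Averaged over doses, 29 of the 45 members (64.4%) differed between the lines, where 48.7% of all genes did. In 3 of these, CALR, CANX and SSR1, probe sets of the gene that passed were opposed. Of the other 26, GM15510 was higher for 8 and lower for 18, all 7 of the ATF4 branch lower, the XBP1/ATF6 branch 5 higher and 4 lower, and ER folding or translocation 3 higher and 7 lower. With these 3 counted by their chosen probe sets, all lower, the counts were 8 and 21 in all and 3 and 10 for ER folding or translocation. Among all genes that passed, 1635 were higher and 2309 lower in GM15510. Median centring of unscaled arrays gave 9 members higher and 13 lower. In the ATF4 branch, TRIB3 did not pass with 18 of the 30 arrays left out in turn and passed in 7 of 12 alternative settings. ASNS and SLC3A2 each passed in 9 of the 12. DDIT4 read between 7.97 and 8.71 over the 15 arrays of GM15510 and between 8.87 and 9.38 in GM15036, which did not overlap, a difference of -0.88 ± 0.04 (limma, adjusted p = 5.66e-18). EDEM1 differed by -0.63 ± 0.07 (adjusted p = 3.05e-09 in limma) and SDF2L1 by -0.55 ± 0.05 (1.89e-10), and their arrays did not overlap either. PDIA4 differed by -0.55 ± 0.06 (limma, adjusted p = 6.5e-09), with some overlap. DNAJC3 was higher in GM15510 by 0.63 ± 0.07 (limma, adjusted p = 1.44e-08), XBP1 by 0.51 ± 0.05 (2.11e-10) and HSP90B1 by 0.49 ± 0.07 (4.4e-07), whose other probe set gave -0.18 and did not pass. ATF4 differed by -0.46 ± 0.04 (limma, adjusted p = 1.79e-10) and MZB1 by -0.41 ± 0.05 (3.57e-09), in all alternative settings run and with each array left out. CALR gave -0.57 with its chosen set 200935_at and 0.56 and 0.67 with the other 2, CANX gave -0.35, -0.32 and 0.28, and SSR1 gave -0.65 with its chosen set and 0.29 with 200889_s_at, so none of these is given a direction. Under a filter at the 60th percentile 29 members and 62.3% of all genes differed between the lines. The lines are 1 line each, so a difference between them cannot be told apart from any other difference between these cultures.

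Genes of the same pathways outside the list were read from 3 further lists. The share of all genes that passed in each comparison follows the count. Of 39 measured genes of ER folding and translocation, 12 passed at 10 cGy in GM15036 (30.8%, against 11.7% of all genes), 3 higher and 9 lower, among them MAGT1 (an oxidoreductase subunit of the glycosylating enzyme, -0.79), SRP54 (a subunit of the signal recognition particle, -0.57) and SPCS3 (a signal peptidase subunit, -0.56). At 2.5 cGy in GM15036 3 passed (7.69%, against 0.58%), all lower, and at 5 cGy 0 passed (against 0.123%). At 7.5 cGy 4 passed in GM15036 (10.3%, against 3.18%), all lower, and 6 passed in GM15510 (15.4%, against 1.79%), all higher. PRDX4, an ER peroxiredoxin, was in both counts, with -0.45 ± 0.07 in GM15036 (limma, adjusted p = 4.13e-04) and 0.49 ± 0.07 in GM15510 (2.57e-04). For GM15510, 7 passed at 2.5 cGy (17.9%, against 9.18%), 2 of them higher, 8 at 5 cGy (20.5%, against 3.92%), 5 higher, and 7 at 10 cGy (17.9%, against 6.16%), 4 higher. Of 23 further regulators and degradation genes, 1 passed at 7.5 cGy in each line (4.35%, against 3.18% and 1.79%), HSPA13 (an HSP70-like protein of the ER) at -0.66 in GM15036 and DERL2 (a derlin of the degradation channel) at 0.48 in GM15510. More of the 23 passed at other doses. In GM15036 4 passed at 10 cGy (17.4%, against 11.7%), 1 at 2.5 cGy (4.35%, against 0.58%) and 0 at 5 cGy. In GM15510 3 passed at 2.5 cGy (13%, against 9.18%), 3 at 10 cGy (13%, against 6.16%) and 1 at 5 cGy (4.35%, against 3.92%). Of 24 further ATF4 and eIF2 genes, 3 (12.5%) passed in GM15510 at 2.5 cGy (9.18% of all genes), 5 cGy (3.92%) and 10 cGy (6.16%), and fewer in the other comparisons with 1 cGy. NARS1, the asparagine tRNA ligase, fell by 0.53 at 10 cGy in GM15036 and rose by 0.57 at 10 cGy in GM15510.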

How the data were processed

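The values used here are signal intensities on a linear scale, which the authors made with MAS5 per the submitters' processing notes and deposited as a table of 22283 probe sets; its version and settings are not given in the sources used here. Symbols came from GEO's platform annotation, 19059 of them updated through the gene ID with RefSeq (GRCh38.p14). Of all probe sets, 19071 had 1 symbol, 1043 several and 2169 none. The trimmed means of the arrays (2 to 98%) spanned a 7.91-fold range, and scaling brought every array to their mean, 50.9; a pseudocount of 4 was added and log2 taken. Probe sets with a mean over arrays under the 40th percentile (3.64) and 68 controls were left out. A gene took 1 probe set, a plain _at before _s_at or _x_at, then the brightest. Tests were two-sided with limma 3.58.1 in R 4.3.3 (lmFit over 10 groups and eBayes with trend; 20 residual and 12.3 prior degrees of freedom), checked on simulated data. No pair of arrays was identical. The members and the gene lists were chosen with earlier results of these data known. Named by rule were ATF4, ATF3, DDIT3, XBP1, ATF6, EIF2AK3, ERN1 and HSPA5, up to 8 members a branch that passed a test over doses, and the 6 largest passing differences of the interaction and of the line comparison; PDIA4 and CANX over doses, further members in the last pair and other probe sets were added after their values were seen. The 13 alternative settings were quantile normalization, median centring of unscaled arrays, centring after scaling, pseudocounts of 1 and 16, no filter, a filter at the 60th percentile, array weights, each line fitted alone, a replicate block, brightness as a covariate, leaving out the 5 dimmest arrays, and the brightest probe set of a gene. Each array was also left out in turn. The setting with the brightest probe set repeats the main result for a gene whose chosen set is already its brightest or only one. For a change within 1 line, leaving out an array of the other line alters only the adjusted p.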

Additional observations from a re-analysis of the deposited data

Results flagged for a closer look

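The change with dose differed between the lines, by the F test of the line by dose interaction over all 30 arrays, for 20 members, and the adjusted p-values (limma, Benjamini-Hochberg over all tested probe sets) follow. Among ER folding or translocation genes they were 1.11e-07 for PDIA3, 6.27e-07 for EMC7, 3.92e-06 for MZB1, 2.17e-05 for HSPA5, 6.4e-05 for SEC11A, 0.00278 for HSP90B1, 0.00345 for PDIA6, 0.0127 for SPCS1 and 0.0311 for SPCS2. In the XBP1/ATF6 branch they were 9.56e-05 for SEL1L, 2.51e-04 for MANF, 0.00288 for DNAJC3, 0.00499 for HERPUD1, 0.00584 for XBP1 and 0.0458 for EDEM1. In the ATF4 branch they were 1e-04 for ATF4, 1.22e-04 for ASNS, 4.06e-04 for DDIT4, 0.00439 for EIF2AK3 and 0.0113 for CEBPG. EDEM1 passed this test with 9 of the 30 arrays left out in turn and not with the others (adjusted p up to 0.157), and SPCS2 did not pass without array a or c of GM15036 or array 1 or 3 of GM15510 at 7.5 cGy (adjusted p up to 0.11) or with no filter (0.0663). With brightness as a covariate the interaction did not pass for ASNS (limma, adjusted p = 0.517), DDIT4 (0.545), EIF2AK3 (0.0794), SPCS1 (0.361), CEBPG (0.714) or EDEM1. SPCS1 was also lost without the 5 dimmest arrays, CEBPG in 4 of 12 alternative settings and EDEM1 in 5 of 12. SPCS2, whose chosen probe set passed no test over doses within a line, changed by 0.31 at 7.5 cGy in GM15510 and by -0.19 in GM15036. Groups of 3 arrays were too small for the test of a single array that stands apart.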

How the results depend on the processing

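The counts of members past the threshold depended on how arrays were brought to a common level. The percentages in brackets are the share of all genes that passed under that setting. Median centring of unscaled arrays gave 0 (0.0123%), 11 (4.48%) and 23 (33.9%) members at 5, 7.5 and 10 cGy in GM15036, the 23 all lower, where scaling gave 1, 7 and 9. In GM15510 it gave 28 (44.7%), 8 (15.4%), 0 (0.0617%) and 0 (1.39%) at the 4 higher doses, the 28 and 8 all lower, where scaling gave 4, 2, 6 and 4. It gave 32 in the F test of GM15510 (49.2%; as scaled 15) and 32 in the interaction (46.1%; as scaled 20). It turned the changes at 10 cGy in GM15036 of ATF4 to -0.27, PDIA4 to -0.070 and MZB1 to -0.14, and in GM15510 of HSPA5 at 2.5 cGy to -0.42 and EMC7 at 5 cGy to -0.012. Centring after scaling gave, for GM15036, 2 members at 2.5 cGy (0.728%) and 0 at 5 cGy (0%), and for GM15510 10 at 2.5 cGy (20.6%) and 3 at 7.5 cGy (0.568%). Array weights gave, for GM15036, 2 at 2.5 cGy (3.17%) and 4 at 5 cGy (1.25%), and for GM15510 13 at 10 cGy (13%). Brightness as a covariate gave 1 (0.58%) and 2 (2.69%) at 2.5 and 10 cGy and 13 (8.97%) in the F test in GM15036, and 2 (0.913%) at 2.5 cGy in GM15510. A filter at the 60th percentile gave, for GM15036, 1 at 2.5 cGy (1.17%), and for GM15510 7 at 2.5 cGy (14.8%) and 8 at 10 cGy (11.1%), and no filter gave 4 at 7.5 cGy in GM15036 (1.56%). Without the 5 dimmest arrays, which left GM15036 at 10 cGy and GM15510 at 2.5 cGy with 1 array assumed to vary like the others, GM15036 had 1 member at 2.5 cGy (1.04%) and 4 at 10 cGy (5.53%), and GM15510 2 at 2.5 cGy (4.63%) and 7 at 10 cGy (8.07%). The brightest probe set whatever its suffix turned the line difference of CALR to 0.56. The cause of these changes was not tested.

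With 1 array left out, the counts at 2.5, 5, 7.5 and 10 cGy ran from 0 to 1, 0 to 2, 3 to 7 and 7 to 9 in GM15036, and from 2 to 5, 2 to 2, 3 to 6 and 2 to 6 in GM15510. They ran from 15 to 21 and from 11 to 17 in the F tests, 18 to 21 in the interaction and 27 to 29 between the lines. The shares of all genes with 1 array left out are not given here. The number of ER folding genes highest at 5 cGy ran from 9 to 12 for GM15036, and the number highest at 7.5 cGy from 9 to 11 for GM15510; these counts were examined after seeing the data. In their deviations from group means, 0 of 30 same-label pairs in each line correlated over 0.1. The highest were 0.041 in GM15036 and 0.097 in GM15510, and pairs of different labels reached 0.055 and 0.069. Low correlations do not show whether arrays of 1 label share a culture or a run. A fit with the replicate block, reading 2b as 2, gave 0 (0.481% of all genes), 1 (0.0987%), 7 (3.04%) and 9 (11.3%) members in GM15036. In GM15510 it gave 3 (8.73%), 2 (3.67%), 5 (1.48%) and 5 (5.86%). It gave 20 (15.2%) and 15 (20.3%) in the F tests and 20 (19.7%) in the interaction. Between the lines it gave 26 (27.1%), but that fit sets replicate 1 of GM15510 against replicate a of GM15036. This is not the line difference averaged over replicates, so the 26 is not the same comparison. Dim arrays limit what members near the filter can show.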
